A study of Homo sapiens with 4 samples.

Results

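Toll-like receptors and their co-receptors were followed as 10 genes, chosen by name, of 25680 gene rows in each deposited table. They are the receptors TLR1, TLR2, TLR4, TLR5, TLR6, TLR7 and TLR8, the co-receptors CD14 and LY96, and the adaptor MYD88. The libraries came from THP-1, a cultured line of human monocytic leukaemia cells, and were compared to ask how expression differs in acute myeloid leukaemia cells when PIWIL4, a gene of the PIWI family of small-RNA-binding proteins, is knocked down. In the control group (Scrambled, 2 libraries), cells had received the PGP-Scrambled lentivirus, which carries a scrambled short hairpin RNA (shRNA), and in the knockdown group (shPIWIL4, 2 libraries) they had received PGP-shPIWIL4, with an shRNA against PIWIL4. Cells of both groups were sorted 48 hours after transduction, and total RNA was sequenced. Both groups are the same cell line, and 1 shRNA against PIWIL4 was used, so that effects of lower PIWIL4 and other effects of that shRNA cannot be told apart.

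Toll-like receptors sit on the cell surface or in endosomes of innate immune cells and recognise molecules shared by many microbes. TLR2 pairs with TLR1 or TLR6 to bind bacterial lipopeptides, TLR4 binds lipopolysaccharide together with LY96 (also called MD-2) after CD14 has delivered it, TLR5 binds flagellin, and TLR7 and TLR8 bind single-stranded RNA in endosomes. Most of these receptors signal through MYD88, which recruits IRAK kinases and leads to NF-kB activation and to the transcription of inflammatory genes. Monocytes are among the cells best known for using this pathway.

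PIWIL4 itself, the check of the labels, had 23.7 and 23.6 TPM (the authors' relative level, scaled by gene length and depth) in the Scrambled libraries and 11.7 and 11.02 TPM in the shPIWIL4 libraries. Total counts ranged from 31458079 to 53657246 per library. All 10 monocytic markers listed for this comparison (CD14 is one of them) were detected, with a summed level of 1149 to 1156 TPM in the Scrambled and 3715 to 3767 TPM in the shPIWIL4 libraries. LYZ, the lysozyme gene, made up 187 and 203 TPM of the former sums and 2499 and 2431 TPM of the latter. Of the 10 markers 4 rose, among them LYZ and CD68, 2 fell (CSF1R and AIF1) and 4 did not pass the test, with a median log2 fold change of 0.098. Over all tested genes 28.7% were called higher and 29.1% lower by the rule given below. These counts are therefore not read as particular to the markers. Of the T cell markers, CD3E, CD2 and TRAT1 had 0 counts in every library, and the 6 T cell markers together reached at most 0.470 TPM. The epithelial, erythroid and fibroblast lists each summed to at most 2.99 TPM per library. The part of the monocytic marker change in the receptor results was not tested. In bulk RNA, fewer cells of a type and less RNA per cell cannot be told apart.

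After PIWIL4 knockdown the lipopolysaccharide receptor gene TLR4 and the adaptor gene MYD88 rose, while TLR2 and the genes of its partners TLR1 and TLR6 fell. TLR5 and LY96 also fell, at low levels and with calls that did not hold under all settings. CD14 and TLR8 did not pass the test, and TLR7 had too few counts to be tested. Calls are those with an adjusted p below 0.05 (edgeR quasi-likelihood test, Benjamini-Hochberg adjustment over all 16108 genes tested). By this rule 2 of the 10 members rose and 5 fell, against a background of 28.7% of tested genes called higher and 29.1% called lower, 57.7% in all. Without Scrambled library 1, Scrambled library 2 or shPIWIL4 library 1, 3 members were called lower. With a background this high, the count of called members is not read as particular to the family. The median log2 fold change of the 9 tested members was -0.53, and that of all tested genes was -0.0034. LY96 entered the test through its level in the Scrambled libraries, so its fall and the median over tested members carry that selection. The groups did not overlap for 7 of the 9 tested members, where 78.6% of all tested genes had groups that do not overlap.

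**Figure D1:**
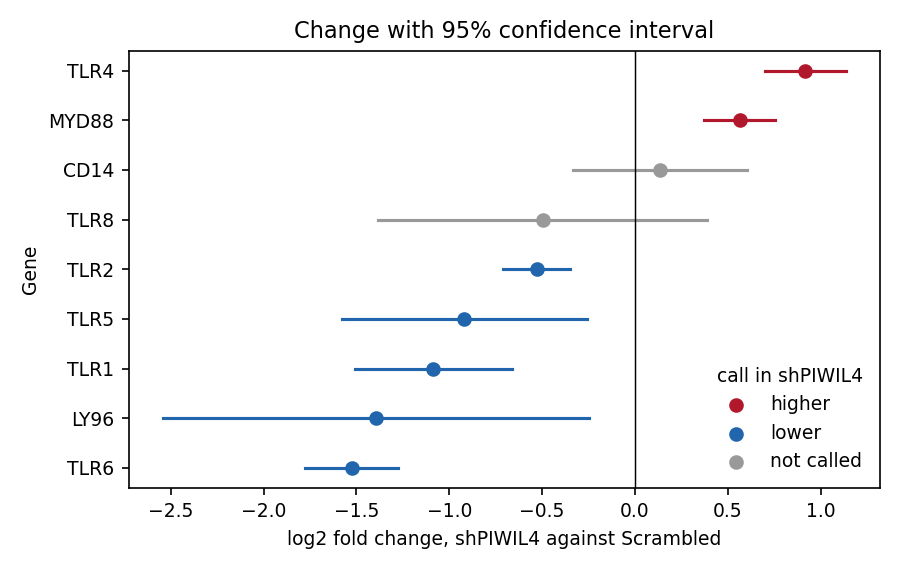
Log2 fold change of the 9 tested genes in shPIWIL4 against Scrambled (horizontal axis) with its 95% confidence interval (lines), from edgeR with 2 libraries per group. TLR4 (0.92) and MYD88 (0.56) lie above 0, CD14 and TLR8 have intervals that cross 0, and TLR6 (-1.53) has the lowest value, inside the interval of LY96.

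TLR2, the receptor shared by the lipopeptide-binding pairs, was the receptor with the highest level in every library. Its level was 72.7 and 77.8 TPM in Scrambled libraries 1 and 2, and 53.4 and 54.2 TPM in shPIWIL4 libraries 1 and 2. Both shPIWIL4 libraries lay below both Scrambled libraries. In CPM (counts relative to library size, scaled by TMM factors), TLR2 went from 128 ± 3.4 to 88.7 ± 3.1 (SD, n = 2 each). TLR2 thus fell by 0.53 in log2 units (SE 0.08), a level 1.44-fold lower (edgeR quasi-likelihood test, Benjamini-Hochberg adjusted p = 4.3e-04).

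TLR6, the partner of TLR2 for diacylated lipopeptides, had a lower log2 fold change than any other tested member in the reported fit, though the interval of LY96 below includes it. Its counts were 521 and 885 in the Scrambled libraries and 280 and 311 in the shPIWIL4 libraries. In CPM these were 16.4 and 16.8 against 5.52 and 5.98, with no overlap between the groups. TLR6 fell by 1.53 (SE 0.11), a level 2.88-fold lower (edgeR quasi-likelihood test, Benjamini-Hochberg adjusted p = 6.1e-06). TLR1, the partner for triacylated lipopeptides, had 3.46 and 3.64 CPM in the Scrambled libraries and 1.38 and 1.96 CPM in the shPIWIL4 libraries. The shPIWIL4 libraries were again lower, with a wider gap between them than between the Scrambled libraries. TLR1 fell by 1.09 (SE 0.19), which is 2.12-fold lower (edgeR quasi-likelihood test, Benjamini-Hochberg adjusted p = 9.4e-04).

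TLR1 and TLR6 lie together on chromosome 4, overlap on the same strand in GENCODE 29 and resemble each other, so reads can be shared between them. Of the 50-base windows in the longest coding TLR1 transcript of GENCODE 29, 8.5% also occur in that of TLR6, and 4.33% of its 100-base windows do. No 50-base window of TLR2 occurs in TLR1 or TLR6. How the authors' counting treated shared reads is not given in the sources used here, and the TLR1 and TLR6 values carry that uncertainty.

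TLR2 transcripts exceeded those of its partners by a wide margin in all libraries. The ratio of TLR2 to TLR6, in TPM within a library and thus free of scaling between libraries, was 13.2 and 13.5 in the Scrambled libraries and 27.1 and 26.3 in the shPIWIL4 libraries. The ratio of TLR2 to TLR1 was 30.4 and 30.03 in the Scrambled libraries and 52.5 and 38.8 in the shPIWIL4 libraries. In both cases the ratio was higher in the shPIWIL4 libraries, and the TLR2 to TLR1 ratio differed more between the shPIWIL4 libraries. With 2 libraries against 2, an exact permutation test of a single ratio cannot pass the threshold, and none was run.

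TLR4, the receptor for lipopolysaccharide, went the other way. Its counts were 638 and 1157 in the Scrambled libraries and 1955 and 2126 in the shPIWIL4 libraries. In CPM these were 20.1 and 21.9 against 38.6 and 40.9, with no overlap. TLR4 rose by 0.92 in log2 units (SE 0.10), a level 1.89-fold higher (edgeR quasi-likelihood test, Benjamini-Hochberg adjusted p = 4.8e-05). In GENCODE 29 another gene model overlaps TLR4 on the same strand, and reads of the 2 models could not be separated here.

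The balance of TLR2 and TLR4 transcripts moved with these changes, and receptor protein was not measured in these libraries. The ratio of TLR2 to TLR4 in TPM was 10.6 and 10.1 in the Scrambled libraries and 3.81 and 3.78 in the shPIWIL4 libraries. TLR2 remained the more abundant transcript in each library. The 7 receptors together summed to 87.8 and 94.4 TPM in the Scrambled libraries and 70.7 and 72.3 TPM in the shPIWIL4 libraries. TLR2 made up 82.8% and 82.4% of that sum in the former and 75.5% and 74.9% in the latter.

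No rise was called for either gene whose protein presents lipopolysaccharide to TLR4. CD14, which transfers lipopolysaccharide to the receptor complex, had 56 and 105 counts in the Scrambled libraries and 124 and 89 counts in the shPIWIL4 libraries. In CPM these were 1.76 and 1.99 against 2.45 and 1.71, so the groups overlapped and shPIWIL4 library 2 was the lowest of all. The log2 fold change of CD14 was 0.13 (95% confidence interval -0.33 to 0.60, edgeR quasi-likelihood test, Benjamini-Hochberg adjusted p = 0.60). Without shPIWIL4 library 1 it was -0.15, so its sign is not settled. CD14 was low for a monocytic marker, at 1.92 to 2.85 TPM over the 4 libraries. AIF1, another of the monocytic markers, was lower still in TPM, at 1.43 and 1.56 in Scrambled and 0.88 and 1.06 in shPIWIL4. In CPM, which is not scaled by length, AIF1 lay above CD14, at 6.74 and 7.16 in Scrambled and 3.91 and 4.85 in shPIWIL4. The order of these genes thus depends on the gene lengths behind the TPM values, 9312 bases for AIF1 and 1806 for CD14.

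LY96, which binds lipopolysaccharide within the TLR4 complex, had 9 and 13 counts in the Scrambled libraries and 3 and 7 counts in the shPIWIL4 libraries. The shPIWIL4 libraries were lower, at 0.0592 and 0.135 CPM against 0.283 and 0.246 CPM. LY96 fell by 1.40 (SE 0.51), with a 95% confidence interval of -2.54 to -0.25 (edgeR quasi-likelihood test, Benjamini-Hochberg adjusted p = 0.040). The call was lost in DESeq2 (adjusted p = 0.25), without a filter on low counts (edgeR, adjusted p = 0.065) and without Scrambled library 1, Scrambled library 2 or shPIWIL4 library 1 (edgeR, adjusted p = 0.11, 0.093 and 0.16). Its log2 fold change was -0.94 without shPIWIL4 library 1 and -2.09 without shPIWIL4 library 2. The summed counts, 22 in Scrambled and 10 in shPIWIL4, gave a ratio of 0.374 with an exact 95% interval of 0.158 to 0.824 that covers counting error only. LY96 entered the test through the Scrambled libraries, so the reported fall and this interval carry that selection. The ratio of TLR4 to LY96 in TPM was 7.54 and 9.47 in the Scrambled libraries and 69.3 and 32.3 in the shPIWIL4 libraries, which rests on those few LY96 counts.

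MYD88, the adaptor that links most Toll-like receptors and the interleukin-1 receptors to IRAK kinases, had 60.2 and 58.2 CPM in the Scrambled libraries and 83.3 and 91.7 CPM in the shPIWIL4 libraries. Both shPIWIL4 libraries lay above both Scrambled libraries. MYD88 rose by 0.56 in log2 units (SE 0.09), a level 1.48-fold higher (edgeR quasi-likelihood test, Benjamini-Hochberg adjusted p = 4.2e-04). Per length, MYD88 was at 41.3 and 41.2 TPM in the Scrambled libraries, below TLR2, and at 61.0 and 64.7 TPM in the shPIWIL4 libraries, above TLR2. The ratio of MYD88 to TLR2 in TPM was 0.568 and 0.529 in the Scrambled libraries and 1.14 and 1.19 in the shPIWIL4 libraries.

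TLR5, the flagellin receptor, was at a low level in all libraries, with 19 and 31 counts in Scrambled and 15 and 17 counts in shPIWIL4. In CPM these were 0.598 and 0.587 against 0.296 and 0.327, with no overlap. TLR5 fell by 0.92 (SE 0.29), which is 1.89-fold lower (edgeR quasi-likelihood test, Benjamini-Hochberg adjusted p = 0.023). The call was lost in DESeq2 (adjusted p = 0.23) and in edgeR without Scrambled library 1, Scrambled library 2 or shPIWIL4 library 1 (adjusted p = 0.082, 0.12 and 0.057).

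The endosomal receptors for single-stranded RNA were close to the limit of detection. TLR8 had 8 and 25 counts in the Scrambled libraries and 12 and 16 counts in the shPIWIL4 libraries. The Scrambled libraries, at 0.252 and 0.473 CPM, spanned most of the range, and the groups overlapped. Its log2 fold change was -0.50 (95% confidence interval -1.38 to 0.39, edgeR quasi-likelihood test, Benjamini-Hochberg adjusted p = 0.31), and it was 0.12 without Scrambled library 2. TLR8 has an antisense gene, TLR8-AS1, with 0 and 2 counts in Scrambled and 3 and 0 counts in shPIWIL4, and without a stated strand setting their reads cannot be told apart. TLR7 had 1 count in each Scrambled library and 5 counts in each shPIWIL4 library, below the minimum total of 15 counts for the test. The ratio of its summed counts per effective library size was 4.12, with an exact 95% interval of 0.878 to 38.7 that covers counting error only and includes 1.

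**Figure D2:**
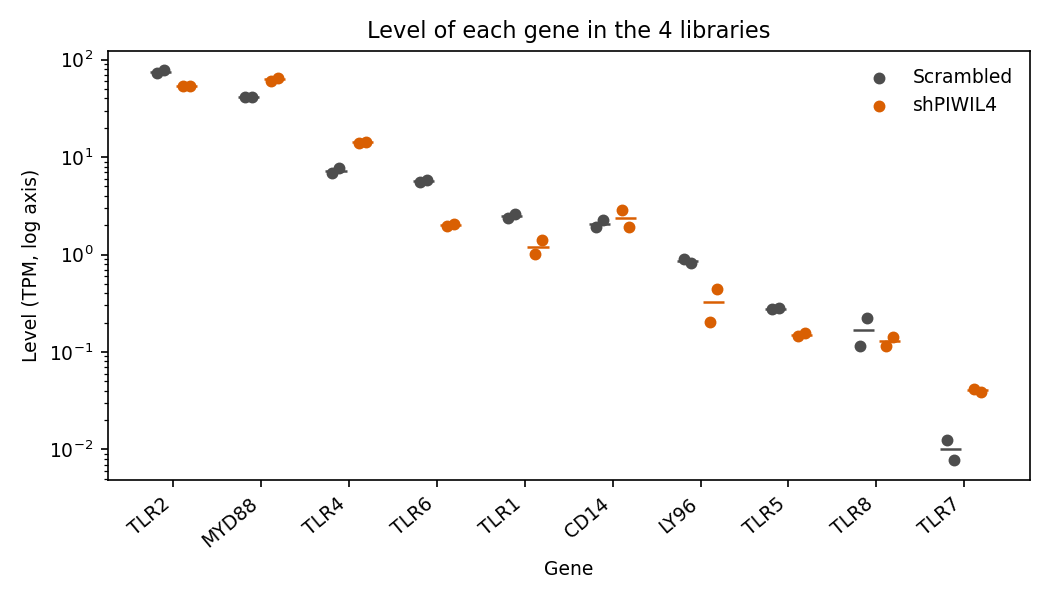
TPM (vertical log axis) of the 10 genes in each library, with points for the libraries and a horizontal line for the mean of each group of 2. TLR2 and MYD88 exchange places between the groups, TLR4 is higher and TLR6 and TLR1 are lower in shPIWIL4, and the levels run down to under 0.05 TPM for TLR7.

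Per length, the order of mean levels in the Scrambled libraries was TLR2 (75.3 TPM), MYD88 (41.2), TLR4 (7.27), TLR6 (5.64), TLR1 (2.49), CD14 (2.08), LY96 (0.861), TLR5 (0.278), TLR8 (0.168) and TLR7 (0.0101). The library ranges of neighbours in this order did not overlap. In the shPIWIL4 libraries the order was MYD88 (62.8 TPM), TLR2 (53.8), TLR4 (14.2), CD14 (2.39), TLR6 (2.02), TLR1 (1.21), LY96 (0.323), TLR5 (0.151), TLR8 (0.129) and TLR7 (0.0403). There the ranges of CD14 and TLR6 overlapped, so their places could not be told apart. MYD88 and TLR2 exchanged places, CD14 stood before TLR6 and TLR1 in place of after them, and the other genes kept their places. Each range rests on 2 libraries.

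Promoter sequences are shown for TLR4 and MYD88, which rose, and for TLR2 and TLR6, which fell, so that members that moved in opposite directions can be compared. They are the 250 bases before the annotated start, 5′ to 3′ on the gene's strand, from RefSeq on GRCh38.p14. That build differs from the hg19 build in the submitters' processing notes. Promoters of 7 of the 10 members were matched. Capitals mark matches to GAGGAA (the core of the site of PU.1, a myeloid transcription factor), TGANTCA (AP-1), 2 copies of GAAA on one strand with 2 bases between them (an interferon response element) or the NF-kB consensus, each searched on both strands, and no match overlapped another.
TLR4, chr9:117704153-117704402, plus strand: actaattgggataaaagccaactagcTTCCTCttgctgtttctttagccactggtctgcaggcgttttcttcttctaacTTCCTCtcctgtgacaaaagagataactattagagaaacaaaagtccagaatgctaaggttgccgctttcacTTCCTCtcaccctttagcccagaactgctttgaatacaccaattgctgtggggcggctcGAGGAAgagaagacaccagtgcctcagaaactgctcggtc
MYD88, chr3:38138411-38138660, plus strand: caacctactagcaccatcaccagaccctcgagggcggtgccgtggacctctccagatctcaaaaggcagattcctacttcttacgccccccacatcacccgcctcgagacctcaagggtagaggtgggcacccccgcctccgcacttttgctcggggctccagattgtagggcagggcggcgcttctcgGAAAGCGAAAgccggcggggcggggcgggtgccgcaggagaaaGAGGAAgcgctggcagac
TLR2, chr4:153684030-153684279, plus strand: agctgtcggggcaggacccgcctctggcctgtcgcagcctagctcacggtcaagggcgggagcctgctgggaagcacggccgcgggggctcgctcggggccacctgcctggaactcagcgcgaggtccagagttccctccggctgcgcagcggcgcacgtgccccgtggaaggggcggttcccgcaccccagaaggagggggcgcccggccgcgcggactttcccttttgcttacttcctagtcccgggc
TLR6, chr4:38856818-38857067, minus strand: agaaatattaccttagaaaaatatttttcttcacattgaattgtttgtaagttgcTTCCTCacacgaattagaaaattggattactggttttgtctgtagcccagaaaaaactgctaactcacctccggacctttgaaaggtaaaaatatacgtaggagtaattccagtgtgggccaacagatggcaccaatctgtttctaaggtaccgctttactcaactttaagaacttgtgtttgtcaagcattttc

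The TLR4 window held 4 matches to the PU.1 core, of which the nearest to the start lay at -40 to -35 (-1 is the last base before the start). The MYD88 window held 1 PU.1 core at -18 to -13 and the interferon response element match at -61 to -52. The TLR6 window held 1 PU.1 core at -195 to -190, and the TLR2 window held none of the 4 motifs. Among the other matched members, CD14 had 1 PU.1 core and 1 AP-1 match, and TLR5 and TLR8 had none. Of 35116 promoters of the same length, 23.6% held a PU.1 core, 6.57% an AP-1 match, 3.02% the interferon response element and 9.96% the NF-kB consensus. These matches describe letters in the windows and show neither binding nor its absence.

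Of the other human Toll-like receptors, TLR9, the endosomal receptor for unmethylated CpG DNA, fell. It had 4.69 and 5.0 CPM in the Scrambled libraries and 1.24 and 1.04 CPM in the shPIWIL4 libraries, with no overlap. Its log2 fold change was -2.09 (SE 0.16, edgeR quasi-likelihood test, Benjamini-Hochberg adjusted p = 9.5e-06). Another gene model overlaps TLR9 on the same strand in GENCODE 29, and their reads could not be separated here. TLR9 is also expressed in B cells. The 5 B cell markers used here summed to 21.2 and 22.6 TPM in Scrambled and 20.6 and 19.04 TPM in shPIWIL4, with CD79A and CD79B lower and PAX5 higher. Among these markers, BLK had 0 counts in every library and MS4A1 at most 1. Their part in the TLR9 result was not tested. TLR3, a receptor for double-stranded RNA, had at most 1 count in any library, and TLR10 had between 1 and 7 counts. Neither was tested.

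Genes that fold, traffic or accompany the receptors were mostly higher, where 28.7% of all tested genes were called higher and 29.1% lower. Of 16 listed genes, 14 were tested, 9 rose and 1 fell (2 without shPIWIL4 library 2 and 0 with a minimum count of 50), with a median log2 fold change of 0.58. The gene that fell, LRRC32, had 22 and 23 counts in Scrambled and 4 and 0 in shPIWIL4 and entered the test through the Scrambled libraries. Whether LRRC32 acts with the receptors was not examined here. It was picked after its values were seen. HSP90B1, the endoplasmic reticulum chaperone on which most Toll-like receptors depend, rose from 1697 ± 107 to 6428 ± 869 CPM (SD, n = 2 each). Pseudogenes resemble HSP90B1 and may share its reads. CTSB and CTSS, lysosomal proteases of the kind that cleave endosomal receptors, rose by 1.73 (SE 0.08) and 1.28 (SE 0.09). CD36, a scavenger receptor that acts with the TLR2 and TLR6 pair, rose by 3.57 (SE 0.17) while TLR2 and TLR6 fell. UNC93B1, which carries nucleic acid receptors to endosomes, rose by 0.93 (SE 0.13), and CNPY3, a co-chaperone of HSP90B1 for the receptors, by 0.57 (SE 0.08). The receptor-like gene CD180 and its partner LY86, which resemble TLR4 and LY96, had log2 fold changes of 0.11 (95% confidence interval -0.25 to 0.48) and -0.0092 (-0.24 to 0.23) and did not pass the test. UNC93B1, CNPY3, CD180 and LY86 were picked after their values were seen.

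Adaptors, kinases and ubiquitin ligases downstream of the receptors moved both ways. All 25 listed genes were tested, 8 rose and 6 fell, and the median was 0.07. Over all tested genes 28.7% were called higher and 29.1% lower, so these counts are not read as particular to the list. IRAK2, a kinase that sustains signalling downstream of MYD88, fell from 11.4 ± 0.032 to 2.20 ± 0.26 CPM (SD, n = 2 each). CHUK, a catalytic subunit of the IkB kinase, rose by 1.00 (SE 0.09), and IKBKE and TRAF3 rose by 0.49 (SE 0.09) and 0.50 (SE 0.09). Of the other receptor adaptors, which were picked after their values were seen, TICAM1 (TRIF) fell by 0.74 (SE 0.14) and TICAM2 (TRAM), which couples TLR4 to TICAM1, rose by 0.67 (SE 0.12). TIRAP, which bridges TLR2 and TLR4 to MYD88, had a log2 fold change of -0.02 (95% confidence interval -0.28 to 0.24) and did not pass the test. IRAK4, the kinase that MYD88 recruits, had one of 0.07 (-0.12 to 0.26) and did not pass it either. Without Scrambled library 1 the list had 5 higher and 3 lower genes, and without Scrambled library 2 it had 4 of each. With upper-quartile factors it had 4 higher.

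Negative regulators were more often lower than higher, with 10 of 18 falling, 3 rising and a median of -0.28. The background for them and for the transcription factors below was 29.1% of all tested genes called lower and 28.7% called higher. CD300A, an inhibitory receptor, fell from 99.2 ± 2.4 to 18.2 ± 1.5 CPM (SD, n = 2 each). NFKBIA, the inhibitor that holds NF-kB in the cytoplasm, and TNFAIP3, a ubiquitin-editing enzyme, fell by 1.18 (SE 0.08) and 1.28 (SE 0.09), and the lipid phosphatase gene INPP5D fell by 1.01 (SE 0.09). NFKBIA and TNFAIP3 are themselves induced by NF-kB. Among 14 transcription factors 2 rose and 9 fell, with a median of -0.54, and 1 was called higher without Scrambled library 1 or 2. JUN and FOS, which form AP-1, fell by 1.92 (SE 0.13) and 1.27 (SE 0.11), and the NF-kB subunit genes REL and NFKB2 fell by 1.00 (SE 0.09) and 1.05 (SE 0.10).

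Genes that receptor signalling induces were largely lower. Of 22 listed cytokine, chemokine and enzyme genes, 21 were matched by name and 15 tested, of which 9 fell and 2 rose, with a median of -0.85. Those called higher numbered 1 without Scrambled library 2 and 3 without shPIWIL4 library 2. CCL20, CXCL8, ICAM1 and IL23A had log2 fold changes of -3.72, -3.06, -2.19 and -1.91, with SEs of 0.17, 0.14, 0.14 and 0.11. Levels within the list differed widely, from CCL5, with 5353 and 8677 counts in the Scrambled libraries and 3496 and 3691 in the shPIWIL4 libraries, to the cytokine genes IL6 and IL12B, with at most 2 counts and 1 count in any library. These 3 genes were picked after their values were seen. The labels name no receptor ligand, so the levels are those of cells to which none is stated to have been added. In each of these lists the counts are read against the background of 28.7% higher and 29.1% lower over all tested genes.

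Interleukin-1 family receptors, which share the intracellular TIR domain and MYD88 with the Toll-like receptors, were split. Of 7 listed genes 4 were tested, 2 rose and 1 fell, where 28.7% of all tested genes were called higher and 29.1% lower. With so few genes tested, these counts are not read as particular to the family. IL1RAP, the accessory chain of the interleukin-1 receptor, fell from 67.3 ± 3.8 to 46.1 ± 0.40 CPM, while IL1R1, the ligand-binding chain, rose from 2.33 ± 0.049 to 4.58 ± 0.73 CPM (SD, n = 2 each). IL18RAP rose from 0.249 ± 0.0040 to 0.844 ± 0.38 CPM, at a low level and with a wide spread between the shPIWIL4 libraries.

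**Figure D3:**
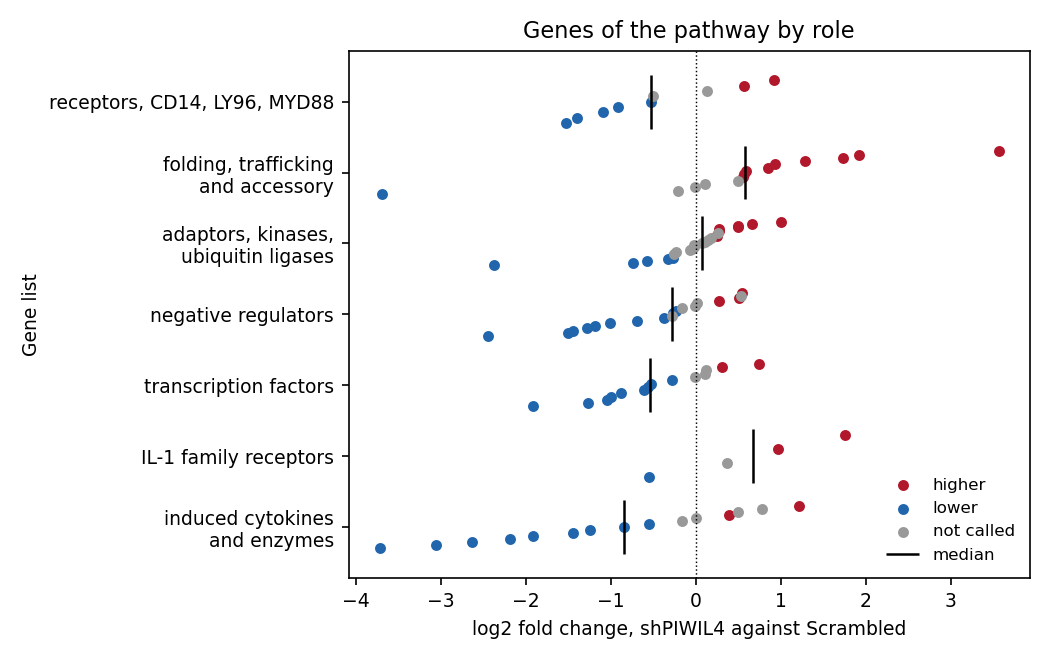
Log2 fold change in shPIWIL4 against Scrambled (horizontal axis) of each tested gene, by role in the pathway (rows), with 1 point per gene coloured by its call and a vertical line at the median. Folding and trafficking genes lie mostly to the right of 0, with a median of 0.58, and induced cytokines and enzymes mostly to the left, with a median of -0.85.

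The 5 calls for TLR1, TLR2, TLR4, TLR6 and MYD88 held in each of 14 alternatives, which changed the scaling, the filter, the unit, the tool or the libraries. Their log2 fold changes ranged from 0.80 to 0.99 for TLR4, from 0.44 to 0.63 for MYD88, from -0.65 to -0.48 for TLR2, from -1.37 to -0.67 for TLR1 and from -1.65 to -1.14 for TLR6. The values nearest to 0 for TLR1 and TLR6, as for TLR5 (-0.15) and LY96 (-0.50), came from the log2(TPM + 1) scale, which understates changes of genes at low levels.

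**Figure D4:**
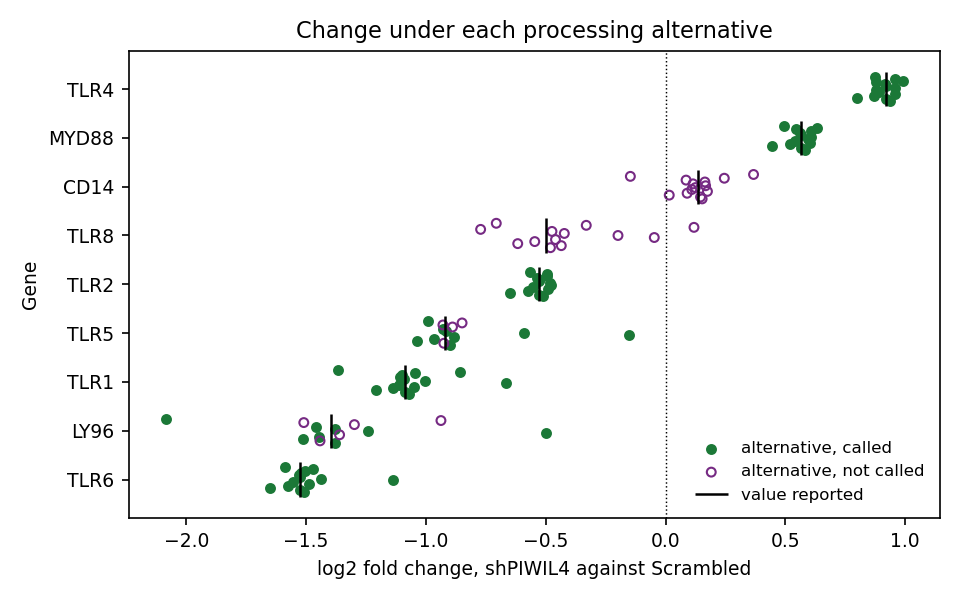
Log2 fold change of the 9 tested genes (horizontal axis) under each processing alternative, with filled points where the gene was called, open points where it was not and a vertical line at the value reported. TLR4, MYD88, TLR2, TLR1 and TLR6 have filled points only, TLR5 and LY96 have both kinds, and CD14 and TLR8 have open points only.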

How the data were processed

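RNA-seq libraries of THP-1 cells (2 Scrambled, 2 shPIWIL4) were grouped by their titles, since the treatment label of the shPIWIL4 libraries also uses the word scrambled. Per the submitters' processing notes, STAR, featureCounts and DESeq2 were used with the hg19 build. The deposited tables give each gene's raw count, and FPKM and TPM computed by the authors. FPKM served only to recover gene lengths, and no reported value uses it. A normalized table of the same libraries was not used here. 1 listed B cell marker is not reported here.

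The test was that of edgeR 4.0.16 under R 4.3.3 (filterByExpr, minimum count 10, minimum total 15, TMM, robust quasi-likelihood F test, group as the only term). Standard errors are the log2 fold change divided by the square root of F. TMM rests on most genes being unchanged, whereas 57.7% were called here. Directions are therefore relative to the centre of all genes. DESeq2 1.42.0 and limma 3.58.1 on log2(TPM + 1) and log2(TPM + 0.1) were alternatives, besides other scalings, filters, a replicate block and each library left out. The method was also run on simulated counts in which only a small share of genes was changed. That run does not bear on the scaling where 57.7% of genes were called.

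The members and lists were chosen with earlier results of these data known. Named were all members, PIWIL4, TLR3, TLR9, TLR10, up to 4 called genes per list with the smallest p, and genes said to be picked after their values were seen. Both replicate pairs differed by more than sampling noise (mean chi-square per gene 7.89 and 27.9). The labels do not say whether replicates are separate cultures, so p-values measure only the spread between these libraries, which may be technical. No batch is named in the labels, and one that coincided with the groups could not be separated from them.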

Additional observations from a re-analysis of the deposited data

How the results depend on the processing

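The members called lower numbered 3, not 5, with DESeq2 and with a minimum count of 50, and 3 to 5 when a library was left out, whereas the 2 called higher kept that number throughout. DESeq2 gave log2 fold changes of -0.93 for TLR5 and -1.44 for LY96 without a call, and LY96 was -1.36 without a filter. Under the minimum count of 50, TLR5, TLR8 and LY96 were not tested, as fewer genes pass it. With a library left out, TLR5 ranged from -0.99 to -0.85, LY96 from -2.09 to -0.94, TLR8 from -0.77 to 0.12 and CD14 from -0.15 to 0.37. TLR5 was -0.15 and LY96 -0.50 on the log2(TPM + 1) scale, and TLR5 was -0.59 on log2(TPM + 0.1), all called. These scales understate the size of changes at low levels. The cause of the other changes was not tested. Leaving out a library leaves 1 in its group, which is assumed to vary like the other group.

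Under upper-quartile factors the median over all genes was -0.12 (log2), with 3446 higher and 5717 lower genes, or 37.6% of calls higher against 49.7% with TMM. Counts of small lists moved by more than 1.5 times in some settings. Folding and trafficking genes had 2 lower with upper-quartile factors, with library totals, without a filter and without shPIWIL4 library 2, and 0 with a minimum count of 50, against 1. Adaptors and kinases had 3 lower on both TPM scales, against 6. Transcription factors had 1 higher with upper-quartile factors and without Scrambled library 1 or 2, against 2. Induced genes had 1 higher with upper-quartile factors and without Scrambled library 2, against 2, and 3 without shPIWIL4 library 2. Interleukin-1 family receptors had 1 higher with a minimum count of 50, against 2.

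With the replicate number as a block, 3921 genes were higher and 4197 lower, and the members kept 2 higher and 5 lower calls. Adaptors and kinases then had 4 higher, against 8, and transcription factors 1, against 2. The deviations of same-numbered libraries correlated at -0.31 over 16108 genes and at -0.73 over the 10200 with a mean log2 CPM above 3, so the numbers are not shown to pair the libraries. The crossed replicate block, added after seeing the data, called 5728 higher and 5641 lower, 2 and 5 of them members, and 2 lower trafficking genes. Genes with few counts, TLR5, TLR7, TLR8 and LY96, are limited by depth.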
